A study of Mus musculus with 12 samples.

Results

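Macrophages that lack inducible NO synthase were compared before and after proinflammatory activation, using 6 of the 12 arrays of the series. They were bone marrow derived macrophages (BMDMs) of Nos2-/- mice, the strain B6.129P2-Nos2tm1Lau/J per the methods, grown from bone marrow in culture with 20 ng/mL of M-CSF. The 3 stimulated arrays carry RNA of cells given LPS at 100 ng/mL together with IFNγ at 50 ng/mL for 8 h, and the 3 untreated arrays RNA of cells described in the labels as not yet stimulated and in the protocol as given PBS. The other 6 arrays are BMDMs of C57BL/6 mice (WT) under the same conditions, with 3 untreated and 3 stimulated, and they are used here to estimate the spread and to ask where the response of the knockout differed. The Nos2-/- mice carry the altered allele in every cell from the zygote on. The labels give no age, but the methods give an age range in weeks for all mice and matching for age and sex. The labels call the arrays of a group biological replicates without saying which animals they came from, so that p-values measure the spread between these arrays. Members of the response are genes. Each of the 18193 genes with a probe set naming that gene alone was represented by the probe set with the highest mean over the 12 arrays, and signals are log2 values from robust multi-array averaging (RMA), on which 1 unit is a doubling.

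LPS, a component of the outer membrane of Gram-negative bacteria, is sensed by Toll-like receptor 4 and switches on NF-kB, AP-1 and IRF3 and, through secreted interferon β, the interferon-stimulated genes. IFNγ, the product of T and NK cells, acts through JAK kinases and raises GTPases, antigen processing and chemokines that attract T cells. Activated mouse macrophages also make inducible NO synthase, which produces NO from arginine, and NO blocks enzymes with iron-sulfur or heme centres. In Nos2-/- cells the transcriptional response runs without that enzyme.

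The cells carried the transcripts that define macrophages. Over 9 macrophage markers measured, the mean signal lay between 12.2 and 12.3 in untreated arrays and at 12.3 in each stimulated array. The Fc receptor Fcgr1 (1.27 on the log2 scale), Cd14 (0.76) and Spi1 (0.58) rose with stimulation, and Cd68 (-0.91), the M-CSF receptor Csf1r (-0.38), Adgre1 (-0.33), Mertk (-0.32) and Lyz2 (-0.27) fell. Mertk kept its call in only 8 of 23 alternative settings. The lowest correlation between replicate Nos2-/- arrays over all probe sets was 0.996. The targeted gene does not check the labels here, because it is not known whether its 1 probe set lies in the altered part. Its signals were 5.15, 5.41 and 5.36 in untreated and 7.74, 7.45 and 7.88 in stimulated Nos2-/- arrays, a rise of 2.39 (SE 0.11), against a rise of 4.22 in WT.

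Stimulation changed the signal of most measured genes of Nos2-/- macrophages, in the main by small amounts. With limma at a Benjamini-Hochberg adjusted p under 0.05, the share of genes called was 54.5%, with 26.3% of all genes higher and 28.2% lower. Which direction was the more frequent depended on the scaling, since rises made up 48.3% of called genes here but 56.7% after median centring and 51.4% after quantile normalization, whereas at 2-fold falls were the more frequent under all of these. Calls also depended on brightness: 30.7% of genes with a mean signal above the median gene were higher and 47.3% lower, against 21.9% and 9.11% of the dimmer genes. A change of at least 2-fold was called in 15.2% of genes, with 5.58% higher and 9.65% lower. The arrays of the groups did not overlap for 60.5% of all genes and for 9611 of the 9922 called. SEs of the log2 fold changes were 0.0859 at the median gene and under 0.137 for 95% of genes. Several of the 15 largest rises and 15 largest falls were less precise than that. Their SEs reached 0.25 for Egr1, 0.21 for Gcnt1 and Cxcl9, and 0.20 for Saa3, while Il6 was at 0.08. Values below are given with their own SE only where the result turns on them. In bulk RNA, fewer cells expressing a gene and less RNA per cell cannot be told apart.

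Rises and falls had different shapes, with a median change of 0.43 for called rises and -0.72 for called falls on the log2 scale. At least 1.5-fold, 1713 genes were higher and 3130 lower. At 4-fold the numbers were 396 and 439. Beyond that the order turned, with 195 genes higher and 111 lower at 8-fold, 95 and 27 at 16-fold, 48 and 5 at 32-fold, and 23 and 1 at 64-fold. Among called genes under 1.5-fold 3075 were higher and 2004 lower, and from 1.5-fold to under 4-fold 1317 and 2691. The largest and the smallest called changes were thus more often rises, and those between more often falls.

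**Figure D1:**
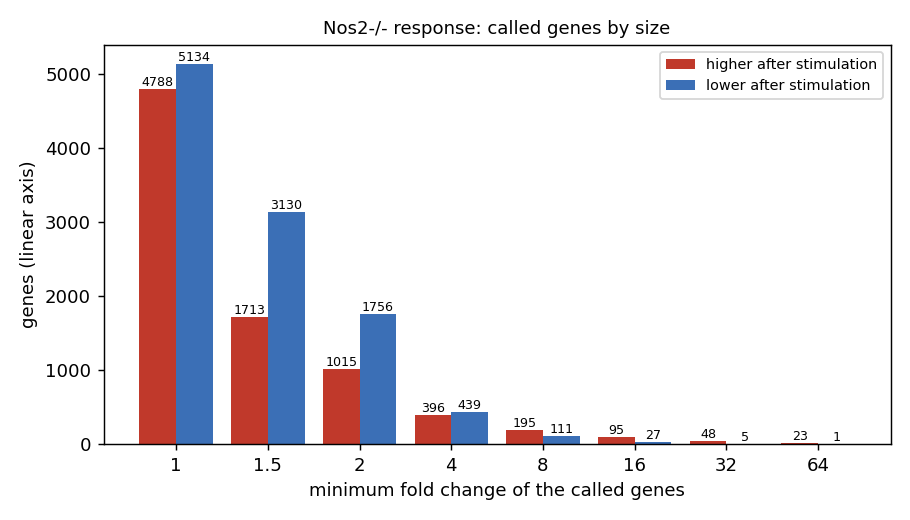
Bars count the genes called in stimulated against untreated Nos2-/- macrophages (3 arrays each, limma adjusted p under 0.05) that changed by at least the fold on the horizontal axis, in red for genes higher and in blue for genes lower after stimulation. Falls outnumber rises at 2-fold (1756 against 1015), and rises outnumber falls from 8-fold on (195 against 111).

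The largest rises started from untreated means between 3.14 (Il6) and 7.04 (AA467197). The 15 largest were Il6, Cxcl9, Saa3, Serpinb2, Arg2, Itgb8, Slamf1, Upp1, Lcn2, U90926, Socs3, AA467197, Cfb, Timp1 and Ptgs2, from 9.38 for Il6 down to 6.67 for Ptgs2 on the log2 scale. In the rise at rank 5, Arg2, the mitochondrial arginase, signals were 3.96, 3.79 and 4.43 in untreated and 11.36, 11.14 and 11.48 in stimulated arrays, a 154-fold difference (log2 7.27, SE 0.15, limma adjusted p = 8.48e-14). Itgb8, an integrin subunit, went from 3.58, 3.25 and 3.19 to 10.67, 10.53 and 10.46. Upp1, which cleaves uridine into uracil and ribose 1-phosphate, went from 4.85, 5.19 and 4.90 to 12.14, 11.90 and 12.22, a 138-fold difference. In all 15 the untreated and stimulated arrays stood apart by several times the range within either group. Several are known inhibitors or defence proteins: Socs3 blocks cytokine receptor signalling, Timp1 inhibits matrix metalloproteinases, and Lcn2 binds bacterial siderophores. RMA signals flatten near the lower end of the scale, so that folds from such low untreated signals can be understated.

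No promoter was held for Arg2. Promoters of the other genes among the 10 largest rises were searched for the letters of motifs bound by the factors of this stimulus. The letters of E2F and CCAAT were searched for comparison. Those of Slamf1 and Lcn2 held none, and those of Itgb8 and U90926 CCAAT alone. Those of Cxcl9 and Il6 held the most kinds, with Saa3 and a promoter of Serpinb2 next, at 2 kinds each. For Cxcl9 this counts an AP-1 match at base 32 after the start, which is outside the sequence shown. Those of Cxcl9, Il6 and Saa3 are shown here up to the base before the RefSeq start of the gene (GRCm38.p6). They run in the direction of the gene, with motif matches in capitals. For Cxcl9 (chr5:92328080-92328329, minus strand) the capitals mark, in order, GAAANNGAA of the interferon-stimulated response element (ISRE), GGNNTTTCC of NF-kB, CCAAT, and a further match of NF-kB. For Il6 (chr5:30012864-30013113, plus strand) they mark AP-1 on the reverse strand, CCAAT and NF-kB, and for Saa3 (chr7:46715677-46715926, minus strand) NF-kB on the reverse strand and ISRE.
Cxcl9: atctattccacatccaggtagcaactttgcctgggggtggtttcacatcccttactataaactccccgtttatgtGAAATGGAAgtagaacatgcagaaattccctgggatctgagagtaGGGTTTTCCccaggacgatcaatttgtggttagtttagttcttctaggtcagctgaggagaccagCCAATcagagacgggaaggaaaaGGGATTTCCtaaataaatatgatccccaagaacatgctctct
Il6: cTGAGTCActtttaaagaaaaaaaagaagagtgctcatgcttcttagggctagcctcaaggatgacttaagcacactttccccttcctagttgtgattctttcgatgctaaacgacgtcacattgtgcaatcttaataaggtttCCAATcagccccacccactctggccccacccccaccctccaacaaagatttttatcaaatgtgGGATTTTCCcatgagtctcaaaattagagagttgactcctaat
Saa3: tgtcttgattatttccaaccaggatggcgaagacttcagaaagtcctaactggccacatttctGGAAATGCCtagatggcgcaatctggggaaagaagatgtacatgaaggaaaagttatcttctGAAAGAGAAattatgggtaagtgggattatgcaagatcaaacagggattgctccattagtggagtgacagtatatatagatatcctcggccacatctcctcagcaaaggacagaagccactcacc

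The share of promoters with such letters differed between genes that rose and fell, not in the same way for each motif. Promoters of 250 bases before to 50 after the start were held for 14367 of the 18193 genes (18006 promoters) and searched on both strands. GGNNTTTCC can share bases with TTTCCCGC, and GAAANNGAA with TTCNNNGAA, so the motifs are not independent. The ISRE letters stood in 7.38% of all promoters, in 16.7% of those of genes called at least 8-fold higher, in 11.7% at 2 to 8-fold higher, and in 5.38% at 8-fold lower or more. The NF-kB letters stood in 6.00% of all and 12.6% at 8-fold higher or more, and the AP-1 letters TGACTCA in 4.52% and 12.1%. The AP-1 share had no order beyond the strongest rises, with 4.90% at 2 to 8-fold higher, 5.16% of genes not called and 5.38% at 8-fold lower or more. The E2F letters TTTCCCGC ran the other way, with 1.58% of all promoters, 0.505% at 8-fold higher or more and 5.38% at 8-fold lower or more. These are shares of 198 promoters of the strongest rises and 130 of the strongest falls and are given without a test.

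The largest falls started from bright probe sets. The 15 largest were Cxcr4, Rgs18, Sesn1, Ank, Mtss1, Gcnt1, Egr2, Nrp1, Rgs2, Rnf144b, Egr1, Gpr183, Otulinl, Fgf13 and Mef2c, from -6.32 for Cxcr4 to -4.44 for Mef2c. Sesn1, a stress-response gene among p53 targets, had 11.85, 11.87 and 11.96 in untreated and 6.77, 6.72 and 6.21 in stimulated arrays, 40.2-fold lower (log2 -5.33, SE 0.12, adjusted p = 1.57e-13 by limma). Ank, which is needed for export of pyrophosphate, had 11.18, 11.22 and 11.03 before and 5.88, 6.20 and 6.06 after stimulation. Among them, Rgs18 and Rgs2 dampen signals of G protein-coupled receptors and Cxcr4 and Gpr183 are such receptors. Egr1, Egr2 and Mef2c are transcription factors. Egr1 had the widest range of these 15 among untreated arrays, with 9.78, 10.06 and 11.17 in untreated arrays, and its stimulated arrays at 5.85, 5.47 and 5.69 still lay below all of them.

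**Figure D2:**
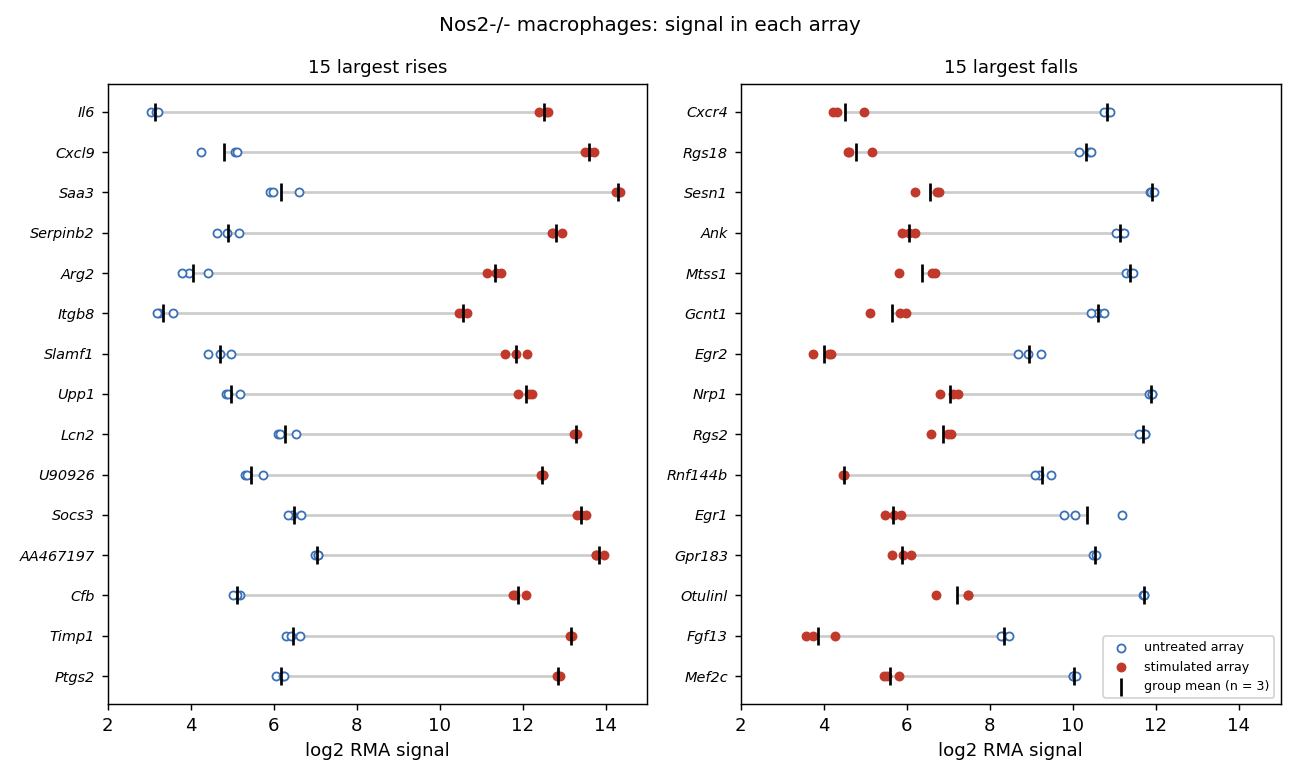
Points are the log2 RMA signals of the 3 untreated (open) and 3 stimulated (filled) Nos2-/- arrays for the 15 largest rises (left) and 15 largest falls (right), and black ticks are the group means. In none of the 30 genes do the arrays of the groups overlap; Egr1 has the widest spread among untreated arrays, from 9.78 to 11.17.

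Individual arrays differed in their signals for the genes called at least 2-fold, and the cause was not tested. For the 1756 genes called at least 2-fold lower, the median difference from the untreated mean was -1.43, -1.46 and -1.62 in stimulated replicates 1, 2 and 3, and replicate 3 was the lowest of the group for 1187 of them. For the 1015 genes called at least 2-fold higher the medians were 1.74, 1.61 and 1.80, and replicate 2 was the lowest for 687. Untreated replicate 3 was the highest untreated array for 613 of the genes that rose. Stimulated replicate 3 thus stood farthest from the untreated arrays in both directions.

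Gene lists were described by how many of their measured members were called and by their median log2 fold change, which was 0.05 over all genes. Most members of each of the 50 gene lists lie among the brighter genes, those with a mean signal above the median gene. Counts are therefore to be read against the shares of these, 30.7% higher and 47.3% lower. Secreted mediators rose as a group. Of 21 interleukins and related cytokines 16 rose (median 1.36), of 13 CC chemokines 10 rose, and of 12 CXC chemokines 8. Among interleukins Il6 was followed by Il1b (6.21), Il33 (5.46), the IL-1 receptor antagonist Il1rn (5.25), Il1a (5.24) and Il12b (4.51), which encodes the shared subunit of IL-12 and IL-23. Il1b had 7.73, 7.11 and 8.42 in untreated and 13.99, 13.94 and 13.96 in stimulated arrays. Its untreated arrays spread by over 1 log2 unit, while its stimulated arrays were nearly equal. Il16, a chemoattractant for CD4+ cells, was the exception at -0.56.

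Chemokines of several classes rose. Ccl5, a chemoattractant for T cells and monocytes, had 7.72, 7.74 and 7.83 before and 14.31, 14.31 and 14.30 after stimulation, a 93.5-fold difference (log2 6.55, SE 0.09). Cxcl11 rose by 6.08, Cxcl3 by 5.22, Ccl7 by 4.46, Ccl4 by 4.13, Ccl12 by 3.83 and Cxcl10 by 3.55. The members that fell were Cxcl14 (-2.60), Ppbp (-1.80) and Ccl6 (-1.35), and Cxcl14 had 10.10, 10.22 and 10.03 before and 7.58, 7.41 and 7.57 after. Of 19 acute phase and secreted defence proteins 13 rose, with Thbs1 (6.49), Cp (6.13), the serine protease inhibitor Slpi (5.21), Vcan (4.97) and the pentraxin Ptx3 (4.87) after those named above, and Fn1 (-0.31) and the lysozyme Lyz2 (-0.27) fell slightly. Among 21 prostaglandin and leukotriene genes 8 rose and 10 fell. These shares of 38.1% and 47.6% were near those of the brighter genes (30.7% and 47.3%), where 18 of them lie. Ptgs2 and Ptges, the pair that makes PGE2, rose by 6.67 and 6.58. Alox5 and its helper Alox5ap, which start leukotriene synthesis, fell (-2.19 and -1.70).

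Of 24 members of the TNF superfamily and its receptors 16 rose and 3 fell. Cd40 rose by 4.57, Tnfsf10 (TRAIL) by 3.79, Fas by 3.31 and Tnfrsf1b by 3.21, while Tnfrsf21 (-2.13), Tnfrsf13b (-1.03) and the RANKL receptor Tnfrsf11a (-0.95) fell. Complement genes moved in both directions, 27.8% of 18 higher and 50% lower, near the shares of the brighter genes (30.7% and 47.3%), where 14 lie. Cfb of the alternative pathway (6.77), C1ra (3.74), C1s1 (1.39), the C1 inhibitor Serping1 (1.02) and properdin Cfp (0.33) rose, and 9 of 18 members fell, among them Cd93 (-2.21), the C5a receptor C5ar1 (-1.85), Cd59a (-1.04) and the C1q chains C1qa (-0.98) and C1qc (-0.52).

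The antiviral list was the most uniform of the 50 gene lists. All 40 antiviral interferon-stimulated genes measured rose (median 1.89), against 26.3% of all genes and 30.7% of the brighter genes, those with a mean signal above the median gene, where all 40 lie. Oasl1, a sensor-related antiviral protein, had 8.21, 8.43 and 8.67 in untreated and 12.61, 12.57 and 12.90 in stimulated arrays, a 19.1-fold difference (log2 4.26, SE 0.13). Isg20 (4.18), Mx1 (4.14), Gm4951 (3.71), Mx2 (3.08) and Rsad2 (3.07) followed. The list mean rose from 9.68, 9.88 and 10.02 in the untreated arrays to 11.98, 11.95 and 12.16, and the groups did not overlap. Of 10 GBP and IRG GTPases, which attack vacuoles of intracellular pathogens, 8 rose with a median of 3.06: Iigp1 (5.42), Gbp6 (5.24), Gbp3 (4.93), Gbp2 (4.91), Gbp7 (3.80) and Igtp (2.31) led. Promoters of 6 GTPase genes were held, and 85.7% of those promoters had the ISRE letters and 42.9% the IFNγ-activated site letters TTCNNNGAA, against 7.38% and 7.20% of all promoters. Among promoters of 29 of the antiviral genes the shares were 36.8% and 21.1%.

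Antigen presentation moved in class I and hardly in class II. Of 18 genes for class I processing and the immunoproteasome 14 rose (median 1.10), led by the peptide transporter Tap1 (2.41) and Tap2 (2.24), the class I transactivator Nlrc5 (2.22) and the immunoproteasome subunits Psmb10 (1.81), Psmb9 (1.78) and Psmb8 (1.23). The members that fell, Pdia3 (-0.72), Calr (-0.66) and Canx (-0.49), are general chaperones of the endoplasmic reticulum. Of 16 class II genes 7 rose and 3 fell with a median of 0.16, and only Rfx5, a factor for class II promoters, reached 2-fold (1.00). The constitutive proteasome had 14 rises and 7 falls among 31 subunits, and none of these reached 2-fold: they ran from Psma6 at 0.89 to Psma1 at -0.35. Costimulatory and coinhibitory ligands rose in 16 of 23 cases (median 1.27). Slamf1 (7.13), Cd200 (5.77), Cd69 (5.33), Cd274 (5.05), Cd40 (4.57) and Cd86 (4.45) led, so that the ligand of the inhibitory receptor PD-1 (Cd274) and the ligand of CD28 (Cd86) rose together. Cd274 had 6.97, 7.22 and 7.36 before and 12.16, 12.18 and 12.37 after stimulation. Havcr2 (-1.86), Vsir (-1.25), Cd276 (-0.82), Icosl (-0.36) and Cd200r1 (-0.25) fell, and Cd200r1 is the receptor for Cd200.

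**Figure D3:**
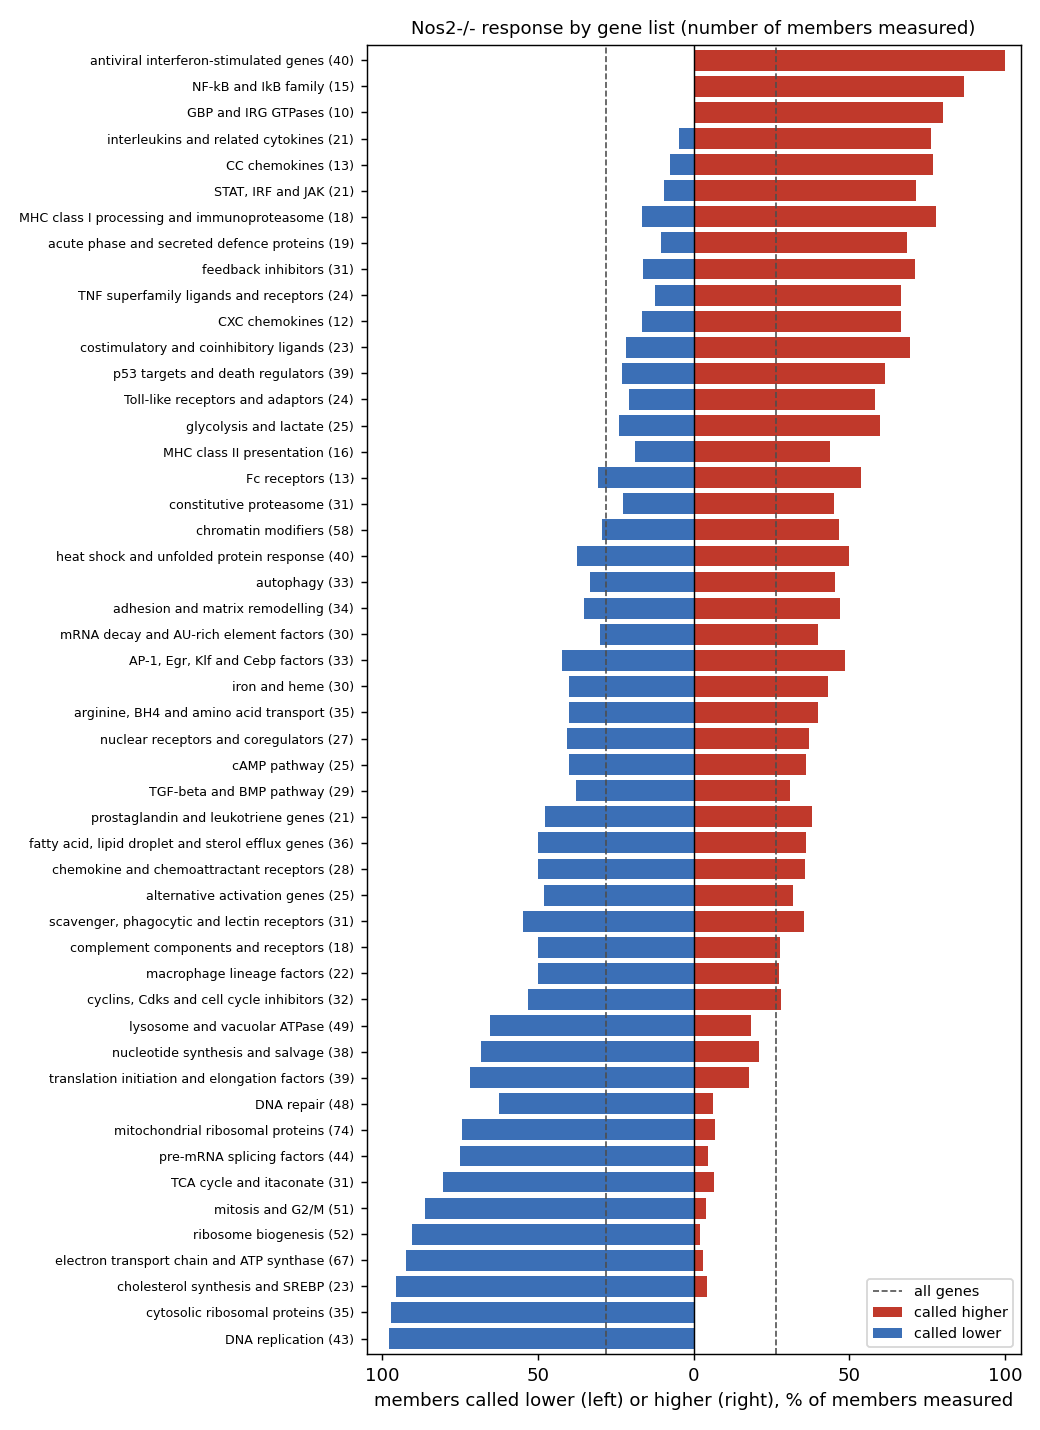
For each of 50 gene lists, bars give the percent of measured members called higher (red, to the right) and called lower (blue, to the left) in stimulated against untreated Nos2-/- macrophages, with the number of members measured in parentheses and the shares over all genes as dashed lines (26.3% higher, 28.2% lower). Antiviral interferon-stimulated genes rose in all 40 cases, and DNA replication genes fell in 42 of 43.

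Signalling genes rose together with their inhibitors. Of 15 members of the NF-kB and IkB family 13 rose, by 2.34 for Bcl3, 2.22 for Nfkbie, 2.19 for Nfkb2 and 2.06 for Nfkbib. Of 21 STAT, IRF and JAK genes 15 rose, led by Batf (3.95), Batf2 (3.53), Jak2 (3.45), Stat3 (2.51), Stat4 (2.41) and Irf7 (2.28), while Irf4 (-0.41) and Stat6 (-0.40), both tied to IL-4 responses, fell. Of 24 Toll-like receptors and adaptors 14 rose. Irak3, an inhibitory kinase of this pathway, rose most (3.39), followed by Map3k8 (2.58) and Tlr3 (2.22), and Tlr13 (-2.51), which senses bacterial ribosomal RNA, Cd180 (-1.67), Irak1 (-1.16) and Ly86 (-0.42) fell. Tlr4 fell as well (-0.86), although its probe sets were called in both directions. Of 31 feedback inhibitors 22 rose (median 1.25): Socs3 (6.93), Cd200, Il1rn, Cd274, Dusp2 (4.39) and Dusp16 (4.04) led. Other phosphatases of MAP kinases fell, with Dusp4 at -2.43 and Dusp6 at -1.28. Socs5 (-1.34) and Pias3 (-0.29) fell too, and Socs4 (-0.46) fell with probe sets called in both directions.

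Transcription factors of the immediate early and differentiation classes were divided. Among 33 AP-1, Egr, Klf and Cebp factors 16 rose and 14 fell. Ier3 (3.52), Fosl2 (2.16) and Cebpb (1.66) rose, and Egr2, Egr1 (-4.67), Myc (-3.39), Cebpa (-3.17), Klf2 (-1.46) and Fos (-1.37) fell. Myc, the regulator of growth and biosynthesis, had 8.44, 8.46 and 8.54 before and 5.04, 5.04 and 5.18 after stimulation, 10.5-fold lower (log2 -3.39, SE 0.11). Mxd1, which competes with Myc for its partner Max, had 6.40, 6.45 and 6.50 before and 10.43, 10.21 and 10.90 after, 16.7-fold higher. Both genes were called with groups far apart. Among 27 nuclear receptors and coregulators 10 rose and 11 fell, and the largest change was the fall of Pparg (-4.21), the lipid-sensing factor of alternatively activated and alveolar macrophages, 18.5-fold lower (SE 0.16 on the log2 scale).

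Surface receptors moved in both directions. Among 28 chemokine and chemoattractant receptors 10 rose and 14 fell, shares near those of the brighter genes (30.7% and 47.3%), where 25 of them lie. Fpr2, a receptor for formylated peptides, had 7.97, 8.02 and 8.26 in untreated and 13.11, 13.11 and 13.12 in stimulated arrays (log2 5.03, SE 0.08), and Ccrl2 (4.40), Ccr7 (3.31), which guides cells to lymph nodes, and Ccr1 (2.16) rose as well. Cx3cr1, the fractalkine receptor of monocytes and resident macrophages, had 12.77, 12.72 and 12.77 in untreated and 8.81, 9.02 and 8.14 in stimulated arrays (log2 -4.10, SE 0.16). Among 31 scavenger, phagocytic and lectin receptors 11 rose, with Marco (3.31), Trem1 (3.25), Olr1 (3.00) and Clec4e (2.97) in front of Clec4n (1.36), Siglec1 (1.02), Axl (0.81), Timd4 (0.69), Msr1 (0.65), Cd302 (0.51) and Clec4d (0.15), and 17 fell, with Colec12 (-2.95), the mannose receptor Mrc1 (-2.64), Cd36 (-2.07), Scarb1 (-1.98) and Trem2 (-1.55). The shares of these 31 called higher and lower were 35.5% and 54.8%, against 30.7% and 47.3% of the brighter genes, where 25 of the 31 lie. Of 13 Fc receptors and related genes 7 rose, led by Fcgr4 (4.30) and the inhibitory Fcgr2b (3.76), and Cd300lb (-3.16), Cd300a (-1.63), Cd300ld (-1.52) and Fcrls (-0.64) fell. When probe sets marked as shared between transcripts were left out, Fcgr2b and Trem2 were not called.

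Genes of alternative activation did not move one way. Of 25 measured, 8 rose and 12 fell, shares of 32% and 48% against 30.7% and 47.3% of the brighter genes, where 15 lie. Arg1, which splits arginine into ornithine and urea, had 4.35, 4.54 and 4.80 before and 9.40, 9.44 and 8.72 after stimulation, and Il4ra (3.74), Ccl22 (3.52), Pdcd1lg2 (1.80) and Tgm2 (1.80) rose with it. Egr2, Pparg, Myc, Mrc1, Cd36 and Igf1 (-1.36) fell. Among 35 genes for arginine, tetrahydrobiopterin and amino acid transport 14 rose and 14 fell. The rises took in both arginases, the arginine transporter Slc7a2 (5.81), the cystine transporter Slc7a11 (4.44), the tryptophan enzyme Ido1 (3.08) and Gch1 (1.65), which starts synthesis of the NO synthase cofactor. The falls included the glutamine transporter Slc1a5 (-2.92), spermidine synthase Srm (-2.87), Slc43a2 (-2.84), glutamine synthetase Glul (-2.00), and Spr (-1.79) and Qdpr (-1.78) of the later steps of cofactor synthesis and recycling.

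**Figure D4:**
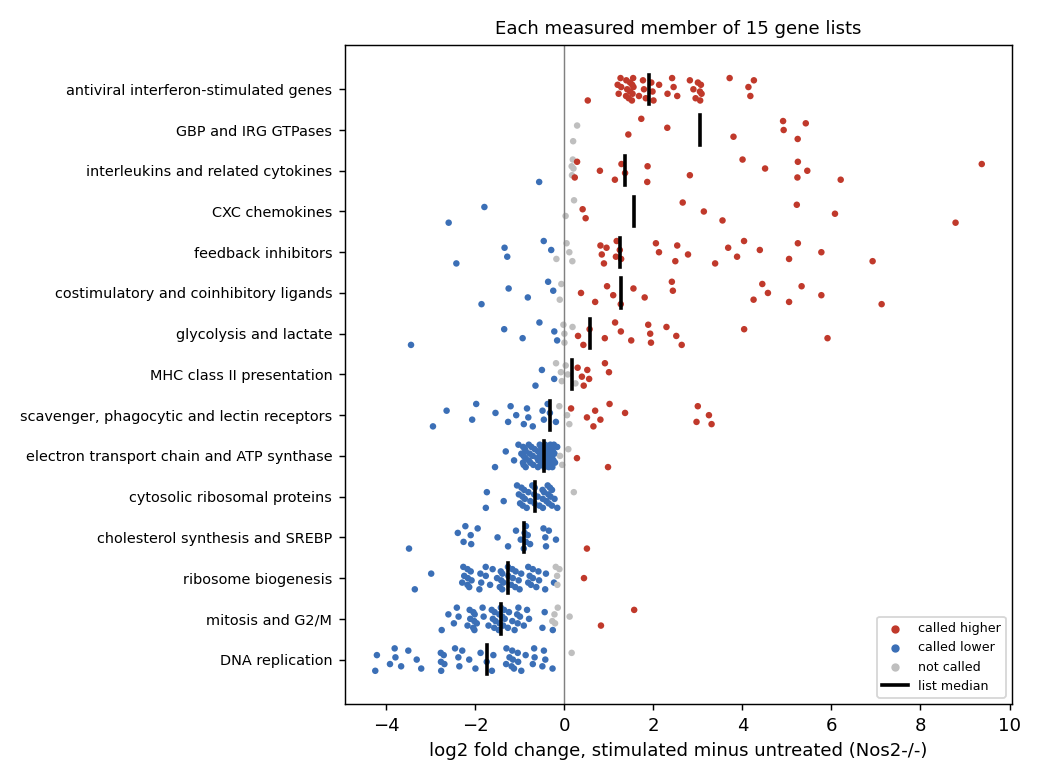
Each point is 1 measured member of 1 of 15 gene lists at its log2 fold change in stimulated against untreated Nos2-/- macrophages, red if called higher, blue if called lower, grey if not called, and black ticks are list medians. Medians reach 3.06 for GBP and IRG GTPases and 1.89 for antiviral interferon-stimulated genes, at the top, and -1.74 for DNA replication, at the bottom.

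Genes of DNA replication and mitosis mostly fell. Of 43 DNA replication genes 42 fell (median -1.74), and Orc1 did not pass the test. Mcm7, a subunit of the replicative helicase, had 11.42, 11.35 and 10.98 in untreated and 7.53, 7.53 and 7.25 in stimulated arrays (log2 -3.81, SE 0.12, adjusted p = 3.94e-12 by limma). Mcm6 (-4.25), Dut (-4.21), Rrm2 (-3.92), Mcm2 (-3.79) and Pola1 (-3.67) were changed as far, which supply deoxynucleotides, unwind DNA and start new strands. Of 51 mitosis and G2/M genes 44 fell (median -1.43), with Cenpk (-2.75), Nuf2 (-2.48), Kif11 (-2.41), Top2a (-2.38) and Bub1 (-2.17) among the largest, while the spindle factors Tpx2 (1.57) and Incenp (0.82) rose. Only 1 of the 4 probe sets for Tpx2 was called. Untreated arrays differed in this programme: mean signal over the mitosis genes was 7.71 and 7.50 in replicates 1 and 2 and 6.80 in replicate 3, and the stimulated arrays lay below all of these, at 5.97, 6.14 and 5.97. In promoters of 36 replication genes TTTCCCGC stood in 13.3% and TTTGGCGC in 15.6%, against 1.58% and 0.789% of all promoters, and CCAAT stood in 78.7% of those of 42 mitosis genes, against 37.4%. CCAAT also stood in 73.3% of promoters of 14 class I processing genes, a list that mostly rose. Among promoters of 19 cholesterol genes its share was 70.4%.

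Regulators of the cycle were divided. Of 32 cyclins, Cdks and inhibitors 9 rose and 17 fell. These shares of 28.1% and 53.1% were near those of the brighter genes (30.7% and 47.3%), where 29 of them lie. Ccne2 (-4.41), Cdk6 (-2.57), Ccnd1 (-2.29) and the inhibitor Cdkn2c (-2.04) fell, and Mxd1 (4.06), Ccnd2 (2.66), the inhibitor Cdkn2d (2.05), Ccnd3 (1.61), Mxi1 (1.01), Cdkn1a (0.94), Cdkn1b (0.57), E2f4 (0.37) and E2f5 (0.22) rose, so that the D-type cyclins went in opposite directions. E2f5 kept its call in only 7 of 23 alternative settings. Of 48 DNA repair genes 30 fell, led by Ung (-3.73), Rad51ap1 (-3.29), Chek1 (-2.64) and Parp1 (-2.49), and Fanca (0.82), Fancc (0.37) and Ercc2 (0.28) rose. Nucleotide synthesis and salvage fell in 26 of 38 genes (median -1.09). Pfas (-3.12), Prps1 (-3.06), Shmt2 (-2.79) and Cad (-2.78) of purine, one-carbon and pyrimidine synthesis led the falls. The members that rose were Upp1 (7.10), Pnp (1.25) and Xdh (1.11), which break nucleosides and purines down, Nt5c3 (2.06), a nucleotidase, the kinases Cmpk2 (2.95) and Dck (0.52), and Mthfd2 (1.00) and Mthfd1l (0.68) of mitochondrial one-carbon metabolism.

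Genes of protein synthesis fell broadly. Of 52 ribosome biogenesis genes 47 fell (median -1.26), and Ddx52 (0.44) rose. Dkc1, the pseudouridine synthase of small nucleolar ribonucleoproteins, had 10.54, 10.54 and 10.42 before and 7.27, 7.27 and 6.89 after stimulation, 10.3-fold lower (log2 -3.36, SE 0.13). Wdr12 (-2.99), Nop58 (-2.29), Rrp12 (-2.27) and Utp20 (-2.25) followed. Of 35 cytosolic ribosomal proteins 34 fell by small amounts (median -0.66), with Rpl14 (-1.76), Rpl12 (-1.74) and Rpsa (-1.36) the farthest. Rps16 did not pass the test. The mean of the list was 12.3 in each untreated array and 11.7, 11.6 and 11.6 in the stimulated arrays. Such probe sets often match pseudogene copies, and without probe sets marked as shared between transcripts 14 of the 20 members still measured fell. Of 39 translation factors 28 fell, with Pdcd4 (-2.30) and Eif2b3 (-1.73) the farthest, and Eif4ebp1 (0.92), a translation repressor, Etf1 (0.70), Eif2b2 (0.58), Eif6 (0.47), Eif4g2 (0.33), Eif1a (0.24) and, with probe sets called in both directions, Eif4ebp2 (0.17) rose. Of 44 splicing factors 33 fell, led by Prpf19 (-1.54), Snrpf (-1.43) and Snrpg (-1.35), and Srsf11 (0.38) and Prpf6 (0.19) rose. These lists lie nearly wholly among the brighter genes, of which 47.3% were called lower with a median change of -0.14, and their counts are to be read against that share.

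Mitochondrial genes fell widely and by small amounts. They too lie nearly all among the brighter genes, of which 47.3% were called lower. Of 67 genes of the electron transport chain and ATP synthase 62 fell (median -0.45). Cycs (0.28), the soluble electron carrier cytochrome c, rose, as did Ndufs4 (0.98), whose probe sets were called in both directions. Without probe sets marked as shared between transcripts 39 of the 53 members still measured fell. Ndufa12 of complex I had 11.63, 11.67 and 11.67 in untreated and 10.18, 10.16 and 9.95 in stimulated arrays, 2.94-fold lower (log2 -1.56, SE 0.07). Of its 4 probe sets 3 were called lower, and the brightest one not marked as shared between transcripts was at 0.13. Ndufs8 (-1.32), Atp5g1 (-1.13) and Atp5g2 (-1.03) followed, and Atp5g1 was not called without probe sets marked as shared. Of 74 mitochondrial ribosomal proteins 55 fell, with Mrpl42 (-2.12) and Mrps28 (-2.07) the farthest, and Mrpl52 (1.05), Mrpl45 (0.89), Mrpl46 (0.22), Mrpl39 (0.21) and Mrpl54 (0.16) rose. Of 31 genes of the TCA cycle and itaconate 25 fell (median -0.45). Idh2 (-2.77), Suclg2 (-2.65), Idh1 (-2.57), Idh3a (-1.98) and Fh1 (-1.82) led, and all kinds of isocitrate dehydrogenase named here were lower. When probe sets marked as shared between transcripts were left out, Idh2 was not called. Acod1, which makes itaconate from the cycle intermediate cis-aconitate, had 8.01, 8.18 and 8.57 before and 14.31, 14.24 and 14.31 after stimulation, a 65.6-fold difference (log2 6.04, SE 0.11). Dld (0.19) was the other member that rose.

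Glycolysis leaned upward. Of 25 genes 15 rose, 11 of them by at least 2-fold, and 6 fell (median 0.57). Pfkfb3, whose product fructose 2,6-bisphosphate drives glycolysis, had 5.99, 6.22 and 6.46 before and 12.12, 12.17 and 12.12 after stimulation, 60.2-fold higher (log2 5.91, SE 0.10). The transporters Slc2a6 (4.04), Slc16a3 (2.64), Slc16a1 (2.52) and Slc2a1 (2.29), for sugars and lactate, and Hk3 (1.95) rose too. The glucose transporter Slc2a3 (-3.44) and Pfkfb4 (-1.35), Aldoc (-0.94), Pdk1 (-0.56), Pfkm (-0.23) and Pkm (-0.16) fell. Pkm kept its call in only 10 of 23 alternative settings. Among paired relatives, then, Slc2a1 and Slc2a3, and Pfkfb3 and Pfkfb4, went opposite ways.

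Genes of sterol synthesis fell. Of 23 genes of cholesterol synthesis and its regulator SREBP 22 fell (median -0.91). Sqle, squalene epoxidase, had 9.87, 9.98 and 9.96 in untreated and 6.61, 6.59 and 6.15 in stimulated arrays, 11.2-fold lower (log2 -3.49, SE 0.11), and Stard4 (-2.39), Idi1 (-2.26), Dhcr7 (-2.22), Cyp51 (-2.10) and Msmo1 (-2.09) followed. Insig2 (0.51), which retains the SREBP complex in the endoplasmic reticulum, was the only member that rose. Among 36 genes for fatty acids, lipid droplets and sterol efflux 13 rose and 18 fell. These shares of 36.1% and 50% were near those of the brighter genes (30.7% and 47.3%), where 34 of them lie. The desaturases Fads1 (-3.60) and Fads2 (-2.32), Acsl3 (-2.69), Elovl6 (-2.67) and Fasn (-2.07) build or extend fatty acids and fell. Hilpda (3.23), Dgat2 (2.73) and Fabp3 (2.30), which store or carry them, the sterol exporter Abca1 (1.98), and Ch25h (1.83), which makes 25-hydroxycholesterol, rose.

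Other compartments were mixed. Of 49 genes of the lysosome and vacuolar ATPase 32 fell, with Lipa (-2.85) and Manba (-2.39) in front, and 9 rose by less than 2-fold, namely Ctsc (0.86), Lamp2 (0.82), Atp6v1e1 (0.65), Gla (0.61), Atp6v1d (0.59), Npc2 (0.42), Tfe3 (0.33), Ctsz (0.28) and Neu1 (0.16). Of 33 autophagy genes 15 rose, led by Tax1bp1 (2.89) and Bnip3 (2.77), and 11 fell. Of 30 iron and heme genes 13 rose, with Alas1 (2.19), the first step of heme synthesis, after Cp, and 12 fell, with the transferrin receptor Tfrc (-2.35), Hfe (-2.24) and the iron exporter Slc40a1 (-2.14). Of 58 chromatin modifiers 27 rose, among them the H3K27 demethylase Kdm6b (2.02), and 17 fell, among them the H3K27 methyltransferase Ezh2 (-2.07). Of 39 p53 targets and death regulators 24 rose: Gadd45b (3.91), the necroptosis effector Mlkl (3.45), Fas, Casp4 (2.91) and the caspase 8 inhibitor Cflar (2.41) led. Sesn1, Trp53inp1 (-2.47), Zmat3 (-2.24), Ccng1 (-1.42), Phlda3 (-0.79) and Bid (-0.50) fell, as did Bmf (-3.28), Bcl2 (-1.93) and Xiap (-0.32), whose probe sets were called in both directions.

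Some markers of other cells were called, although most of the lists other than the neutrophil and erythroid ones lie among the dimmer genes, of which 21.9% were called higher and 9.11% lower. Of 10 neutrophil markers 5 rose, with S100a8 (3.57) and Csf3r (3.19) the largest, and mean signal over the list was between 6.80 and 7.15 in untreated and between 7.81 and 7.97 in stimulated arrays. Elane, which is made in neutrophil precursors, had 5.31, 5.24 and 5.16 before and 5.23, 5.30 and 5.14 after, and was not called. Hdc (4.86), which makes histamine, rose in the mast cell list, whose mean went from 4.49 to 4.58 up to 5.18 to 5.34, and Ccr7 (3.31) in the dendritic cell list, whose mean went from 4.93 to 5.03 up to 5.41 to 5.54. The median change of the members was only 0.28 in the mast cell list and 0.09 in the dendritic cell list. Ighm (-2.52, but 0.19 in its brightest probe set not marked as shared) led 3 falls of 8 B cell markers, and Pf4 (-1.65) and Ppbp were the 2 of 7 erythroid and megakaryocyte markers that fell. Fibroblast and stromal markers had 5 rises of 10, led by Pecam1 (1.49), an adhesion molecule of endothelium and leukocytes, at list means from 4.52 to 4.55 in untreated and 4.91 to 4.95 in stimulated arrays. T and NK markers had 2 rises of 9, neither above 0.32. The part of such cells in the changes above was not tested.

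The genes that changed most in Nos2-/- cells were called in WT cells too. Of the 2771 genes called at least 2-fold in Nos2-/- cells, 2760 were called in the same direction in WT, 7 were not called and 4 were called the other way. These calls in WT needed no minimum fold, a threshold that 54.5% of all genes passed in Nos2-/- cells. With at least 2-fold required in WT too, the number in the same direction was 2410. The arrays of the genotypes share no samples, but all 12 share the estimate of the spread. Tested as a limma interaction with no block, the response differed between genotypes in 0.978% of genes, being higher in Nos2-/- in 0.302% (55) and lower in 0.676% (123). Of the 2771 genes 100 were among them. The stimulation programmes that moved most uniformly held none of these calls. The difference was called in 0 of 40 antiviral genes, 0 of 43 DNA replication genes, 0 of 35 cytosolic ribosomal proteins and 0 of 67 electron transport chain genes, and at an unadjusted p under 0.05 in 8, 2, 0 and 4 of them, against 1825 of all 18193 genes. That does not show that the genotypes responded alike in these lists.

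The genes with the largest differences belonged to several classes. Of 30 iron and heme genes 3 had a called difference, and of 40 heat shock and unfolded protein genes 3. Slc40a1, ferroportin, had 7.92, 7.95 and 8.20 in untreated and 5.88, 5.91 and 5.85 in stimulated Nos2-/- arrays, a change of -2.14, against 0.42 in WT, a difference of -2.56 (SE 0.13, adjusted p = 7.16e-07 by limma). Gclm, the modifier subunit of glutathione synthesis, fell from 10.78, 10.74 and 10.82 to 10.20, 10.16 and 9.89, against a WT change of 1.45 (difference -2.15, SE 0.12). The lowest differences after them were Nrp1 (-1.85), Nos2 (-1.84), Slc22a4 (-1.82), Gclc (-1.79), Cbr3 (-1.76), Srxn1 (-1.75), Dnajb4 (-1.65) and Ampd3 (-1.65). Cxcr4 changed by -6.32 in Nos2-/- and -4.81 in WT (difference -1.51, SE 0.21), Hspa1a rose by 3.58 and 5.06 (difference -1.47), and Arg1 rose by 4.62 and 5.82 (difference -1.20, SE 0.23). The response was higher in Nos2-/- for Gpr34 (difference 1.81), Ptx3 (1.60), Klf2 (1.23), Zfp658 (1.15), Fst (1.12), Tle3 (0.95), Tnfsf10 (0.94), Edn1 (0.92), Gfi1 (0.92) and Otud1 (0.92). Of the calls named here those of Edn1 and Arg1 were lost with the replicate number as a block, and under all alternatives Edn1 kept its call in 7 of 20, Gfi1 in 8 of 21 and Arg1 in 13 of 22. Gpr34 and Klf2 are higher in this sense because they fell less: Gpr34 had 7.01, 6.80 and 7.27 before and 6.06, 5.25 and 5.85 after stimulation, a change of -1.31 against -3.12 in WT.

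**Figure D5:**
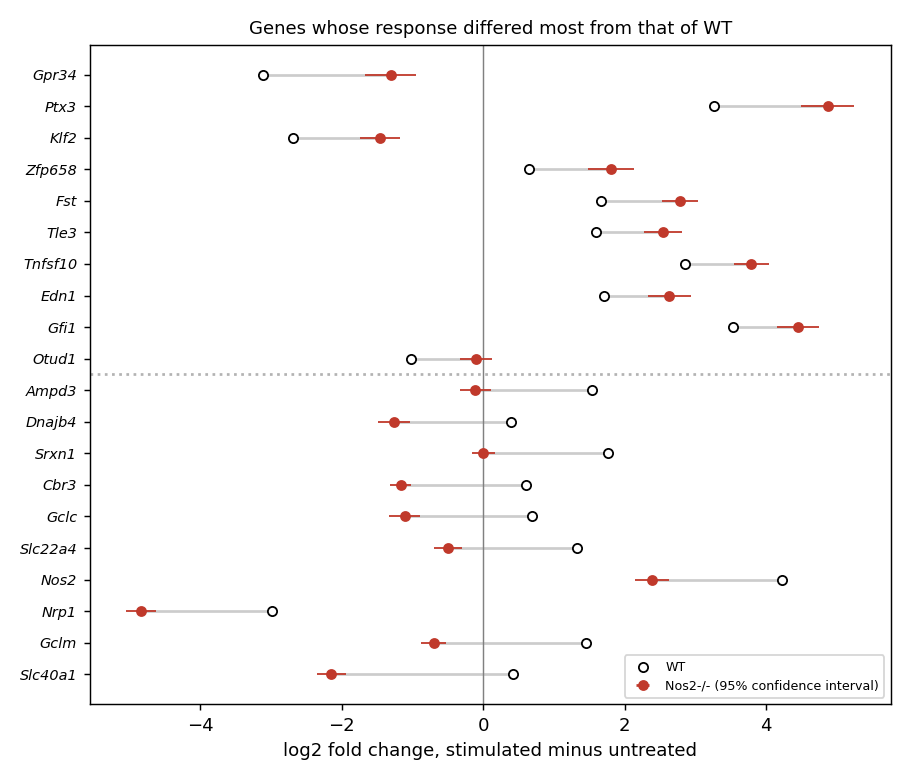
Filled points are log2 fold changes of stimulated against untreated arrays in Nos2-/- macrophages with 95% confidence intervals, and open points are those of WT, for the 10 highest (above the dotted line) and 10 lowest differences among genes called in the limma test of the difference. Slc40a1 fell by 2.14 in Nos2-/- and changed by 0.42 in WT, and Gpr34 changed by -1.31 and -3.12.

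The AP-1, Egr, Klf and Cebp factors held 6 called differences among 33, 3 in each direction. Cebpd and Klf3 with Klf2 were higher, by 0.51 for Cebpd, and Fosl1 (-1.16), Cebpa (-1.00) and Atf3 (-0.59) lower. The 6 became as few as 3 under other settings, and Atf3 kept its call in 9 and Cebpa in 13 of 22 alternatives. Cebpa had 9.49, 9.52 and 9.42 in untreated and 6.58, 6.45 and 5.89 in stimulated Nos2-/- arrays. Fosl1 rose by 1.20 in Nos2-/- and 2.36 in WT. The count of called differences depended on single arrays. Without WT untreated replicate 1, 2 or 3 it was 21, 21 or 28 genes higher, without WT stimulated replicate 1 it was 28, without Nos2-/- untreated replicate 1 or 2 it was 26 or 32, and without Nos2-/- stimulated replicate 1 it was 27. Without WT untreated replicate 1, 2 or 3 the number of genes lower was 72, 75 or 78.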

How the data were processed

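RNA of 12 BMDM cultures was hybridized to Affymetrix mouse arrays, 1 array per sample. The authors used Partek for RMA (no version is given in the sources used here) and deposited log2 signals. RMA subtracts background, equalizes arrays by quantiles and combines a probe set's probes, which compresses differences at low signal. The table held 45101 probe sets, of which 34945 name exactly 1 gene (GEO's annotation of the array, symbols matched to RefSeq). For each of 18193 genes the probe set with the highest mean over 12 arrays was kept, without a filter on dim signals. Array medians ran from 5.14 to 5.21, and the number of arrays limits the precision.

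A linear model per gene with 4 group means was fitted to all arrays in R 4.3.3, and moderated two-sided tests were made with limma 3.58.1. The contrasts were stimulated minus untreated Nos2-/-, the same in WT, and their difference. For the study's own analysis of variance a minimum of 1.5-fold and an FDR of 0.5 are stated. Calls here needed a Benjamini-Hochberg adjusted p under 0.05 over all genes, and the methods' thresholds were an alternative. Correlations of deviations between arrays of the same replicate number ran from -0.038 to 0.0756 in Nos2-/- and from -0.260 to 0.211 over all 18 such pairs, 2 of them over 0.1, so the numbers were not taken to pair the arrays and no block was used. The 50 gene lists and 8 marker lists hold 1793 entries, of which 1646 had a probe set, and several genes stand in more than 1 list. A further gene list is not reported here. Lists are described by counts and medians. Genes were named by a rule: the 15 genes with the largest rise and fall that were called without overlap, up to 6 members of a list in each direction with those against its majority, the 10 highest and lowest differences, Nos2 and marker genes. Ndufa12's and Ighm's other probe sets were looked at after their values were seen. The members and lists were chosen with earlier results of these data known. Promoters come from RefSeq (GRCm38.p6). Python 3.11.15, pandas 2.3.3 and matplotlib 3.10.9 prepared tables and figures, and the model was tested on simulated data.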

Additional observations from a re-analysis of the deposited data

Results flagged for a closer look

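These genes named above had responses that differed between the genotypes by the limma test of the difference (adjusted p under 0.05), given as the log2 response in Nos2-/- minus that in WT. The lower responses were those of Slc40a1 (-2.56), Gclm (-2.15), Nrp1 (-1.85), Nos2 (-1.84), Slc22a4 (-1.82), Gclc (-1.79), Cbr3 (-1.76), Srxn1 (-1.75), Dnajb4 (-1.65), Ampd3 (-1.65), Cxcr4 (-1.51), Hspa1a (-1.47), Arg1 (-1.20), Fosl1 (-1.16), Cxcl3 (-1.09), Slc43a2 (-1.01), Cebpa (-1.00), Cd300lb (-0.90), Lipa (-0.79), Clec4n (-0.78), Cd36 (-0.61), Atf3 (-0.59) and Mxi1 (-0.58). The higher ones were those of Gpr34 (1.81), Ptx3 (1.60), Klf2 (1.23), Zfp658 (1.15), Fst (1.12), Tle3 (0.95), Tnfsf10 (0.94), Edn1 (0.92), Gfi1 (0.92), Otud1 (0.92), Ccl7 (0.85), Ccl4 (0.79), Klf3 (0.58), Map3k8 (0.53), Cebpd (0.51) and Il16 (0.47). Of these 39 calls 13 held under every alternative tried, and 10 held in under 60% of them: Arg1 and Cebpa (13 of 22), Ccl7 (12 of 22), Cd36 (10 of 22), Atf3 and Il16 (9 of 22), Gfi1 (8 of 21), Map3k8 and Mxi1 (7 of 22) and Edn1 (7 of 20). With the replicate number as a block the calls of Arg1, Cd36 and Edn1 were lost.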

How the results depend on the processing

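Counts of the Nos2-/- response kept within 1.5 times under median centring (6221 higher, 4754 lower), quantile normalization (5082 and 4809), which turn the order of rises and falls, a model of the compared arrays, an intensity trend and no moderation. Without genes below the median signal 2937 rose. Counted by probe set, 8573 rose and 9404 fell, and 1824 and 3100 by at least 2-fold. The methods' thresholds gave 1713 and 3130, and 2-fold 1015 and 1756. Leaving out 1 array gave 4211 to 4949 higher, 4902 to 5156 lower, 989 to 1048 and 1648 to 1843 by 2-fold. Differences between the responses moved more: higher, 29 without moderation, 124 with a trend, 116 without dim genes, 99 by probe set, 87 with the methods' thresholds and 5 at 2-fold; lower, 79 without moderation and 35 at 2-fold. Leaving out 1 array gave 21 to 82 higher and 72 to 128 lower; the cause was not tested. With the replicate number as a block, 4757 rose and 5106 fell, and 51 differences were higher and 100 lower. Of 366 genes named, these changed sign in Nos2-/-: Elane (0.0434) under centring, Ampd3 (0.0157), Otud1 (0.161) and Pfkm (0.0604) under quantile normalization, Eif4ebp2 (-0.154), Orc1 (-0.441), Socs4 (0.0180) and Xiap (0.0124) with the mean of all probe sets, Ighm (0.195) and Ndufa12 (0.131) without shared probe sets, and, when an array was left out, Elane (-0.0519 to 0.0288), Srxn1 (-0.0702 to 0.0559) and Ampd3 (-0.188 to 0.0264). Without dim genes, which leaves 32 mitosis genes measured, 27 of them fell. Folds of genes near the lower end of signal can be understated, since RMA compresses differences there. How the precision of folds depended on signal was not tested.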
